A study of Mus musculus with 48 samples.

Results

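The cerebellum of *Atxn1* 154Q/2Q knockin (KI) mice was compared with that of wild-type (WT) littermates at 5 weeks of age. The comparison rests on 6 of the 48 RNA-seq libraries of the study, 3 from KI and 3 from WT males, and its members were taken by the tissue, age and genotype of the sample labels. The KI mice carried 1 *Atxn1* allele with an expanded CAG repeat (154Q) and 1 with the short repeat (2Q), on the C57BL/6J background that the WT mice shared. The mutant protein was made from the gene's own regulatory elements, so it was present wherever *Atxn1* is normally used. The whole study covered the cerebellum and inferior olive of this model and of ATXN1-82Q transgenic (Tg) mice on the FVB/NJ background, at 5 and 12 weeks. In Tg mice human ATXN1 with an expanded repeat was driven in Purkinje cells (PCs) by the *Pcp2* promoter.

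Spinocerebellar ataxia type 1 (SCA1) is an inherited loss of coordination caused by a longer glutamine tract in ATXN1, a nuclear protein that binds transcriptional regulators such as Capicua and RORa. PCs are the sole output neurons of the cerebellar cortex. They receive parallel fibers from granule cells and climbing fibers from the inferior olive, and they signal through metabotropic receptors, G proteins, phospholipase C, inositol trisphosphate receptors and internal calcium stores. The 5 week time-point was chosen in the study as the earliest age of impaired rotarod performance, and the comparison asks which transcripts already differ then.

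Levels are FPKM (fragments counted relative to transcript length and to the mapped fragments of the library), as deposited. A difference is KI minus WT on the log2(FPKM + 0.1) scale, given with its standard error (SE), and an error after a level is the SD over 3 libraries. limma was run on the 13508 named genes whose mean reached 0.5 FPKM in WT and in KI mice. Genes with an adjusted p under 0.05 are termed called, and a wider list was taken at an unadjusted p under 0.01, the limit that the study set for this comparison. The libraries held between 12480 and 12678 genes at 1 FPKM or more, and the deepest held 1.32 times the fragments of the shallowest as read from the lowest values. Depth in fragments is unknown. Within a genotype, the deviations of single libraries followed the GC content of transcripts in opposite directions, with correlations across 12905 genes of 0.437, 0.129 and -0.57 for KI replicates 1, 2 and 3. Marker genes of PCs and granule cells were abundant in all 6 libraries, whereas 21 of 30 genes that mark neurons of neighboring brain regions lay below the filter. Some of the 9 tested ones varied widely within a genotype. *Tcf7l2* had 15.6, 3.31 and 1.75 FPKM in WT and 10.8, 1.51 and 7.18 FPKM in KI mice. Others varied less, such as *Neurod6* with 3.23 to 4.57 FPKM over all libraries.

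*Atxn1* itself had levels of 9.81, 10.996 and 11.35 FPKM in WT and 8.36, 11.8 and 12.0 FPKM in KI mice. The genotypes overlapped, and the difference was -0.02 ± 0.15 (SE, adjusted p = 0.999). Because the KI allele alters the repeat and not the number of gene copies, this level does not check the genotype. *Atxn1l*, a paralog whose product shares partners with ATXN1, had 10.3 ± 0.51 FPKM in WT and 10.4 ± 0.62 FPKM in KI mice. *Cic*, which encodes the repressor Capicua, had 29.2, 27.5 and 26.1 FPKM in WT and 26.6, 26.6 and 18.9 FPKM in KI mice, with KI replicate 3 the lowest. Of the 15 tested genes of the ATXN1 complex, 1 was lower at an unadjusted p under 0.05, and the median difference was -0.03. None of the 12 tested Capicua targets, among them *Etv4*, *Etv5* and *Spry4*, had an unadjusted p under 0.05, and their median difference was -0.05.

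Across the 13508 genes, 1 gene was called (0.0074%), *Igfbp5*, and it was down-regulated in KI mice. An unadjusted p under 0.01 was found for 102 genes (0.755%), fewer than the 135.1 that chance alone would give, of which 77 were lower (0.57%) and 25 higher (0.185%) in KI mice. At an unadjusted p under 0.05 there were 493 genes (3.65%), 317 lower (2.35%) and 176 higher (1.3%). The KI and WT libraries did not overlap for 1288 genes (9.54%), 708 with all KI libraries below all WT libraries (5.24%) and 580 with all above (4.29%). Differences among the 102 genes were modest, from -0.99 to -0.21 for the lower genes and from 0.20 to 0.93 for the higher ones. A difference of at least 1 in either direction was found for 11 genes, none at an unadjusted p under 0.01, and 8 of these were small nucleolar or microRNA genes. One example is *Mir1895*, chosen after its values were seen, with 999 FPKM in WT replicate 1 and 1.38 to 1.74 FPKM in the other 5 libraries. With 3 libraries per genotype an exact permutation test of a single gene cannot go below p = 0.1, so single genes beyond *Igfbp5* are described here by their values.

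**Figure D1:**
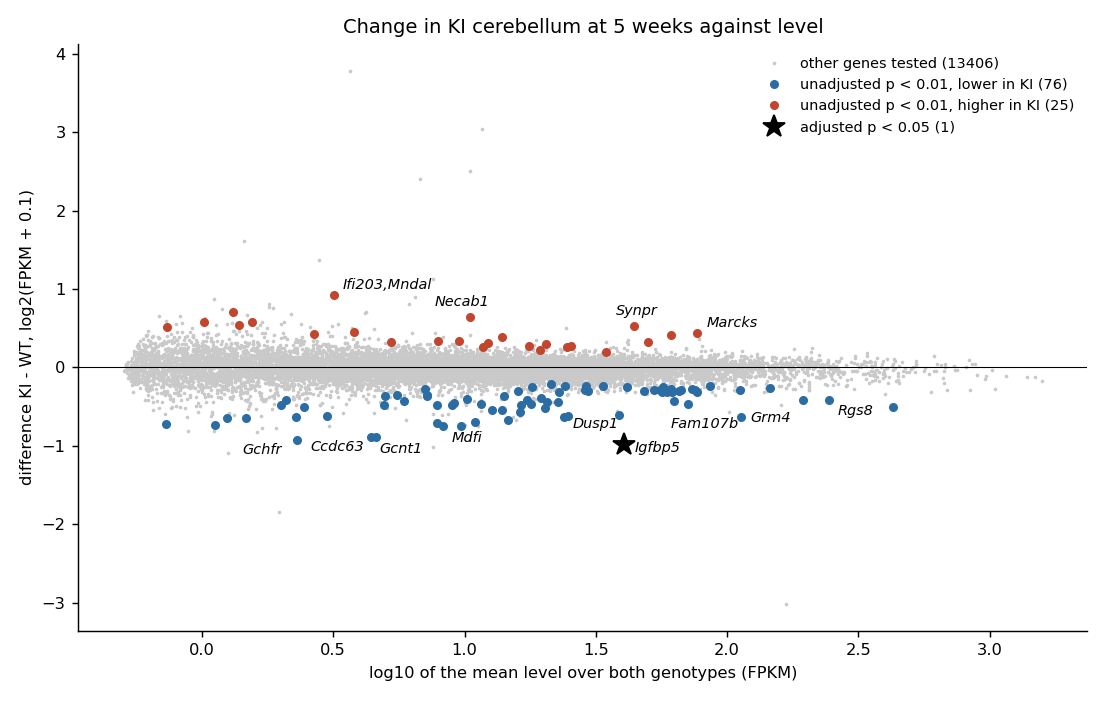
Difference between KI and WT cerebellum at 5 weeks, on the log2(FPKM + 0.1) scale (vertical axis), against the log10 of the mean FPKM of both genotypes (horizontal axis), 1 point per gene. Blue points mark genes lower and red points genes higher in KI mice at an unadjusted p under 0.01, and the star marks *Igfbp5*, the only gene at an adjusted p under 0.05, while the widest scatter belongs to genes with larger p-values.

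*Igfbp5* encodes a secreted binding protein of insulin-like growth factors (IGFs), which carries IGFs in the extracellular space and controls their access to the receptor. Its level was 52.3, 55.4 and 53.6 FPKM in the WT libraries and 24.2, 28.2 and 28.9 FPKM in the KI libraries. All 3 KI libraries lay near one another and far below the WT range, at 0.504 times the WT mean. The difference was -0.99 ± 0.08 (95% confidence interval -1.18 to -0.80, limma, adjusted p = 0.0448). *Igfbp5* lies on chromosome 1 of mm10, in the deposited locus from 72857812 to 72874865. Under 19 alternative settings the difference stayed between -1.04 and -0.91. The adjusted p ranged from 0.00036 to 0.590, and the call was lost under 12 of them, among them leaving out any 1 library other than KI replicate 1.

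The promoter window of *Igfbp5* is shown because it belongs to the one gene that was called. It is RefSeq sequence of GRCm38.p6, the assembly of mm10, from chr1:72874816-72875115 on the minus strand, 250 bases before to 50 after the transcript start. Capitals would mark either of the Capicua octamers TGAATGAA and TGAATGGA, or AGGTCA, the element bound by RORa, on either strand. This window holds none of them, and 56.3% of its bases are G or C.
Igfbp5: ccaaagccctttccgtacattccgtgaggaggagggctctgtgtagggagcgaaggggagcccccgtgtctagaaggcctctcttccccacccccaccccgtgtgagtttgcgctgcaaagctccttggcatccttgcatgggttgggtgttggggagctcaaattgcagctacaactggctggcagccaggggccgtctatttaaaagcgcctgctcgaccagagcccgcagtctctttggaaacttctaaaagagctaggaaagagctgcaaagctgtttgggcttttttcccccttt
Of 10404 tested genes with such a window, 1.86% hold an octamer and 14.6% hold AGGTCA. Among the genes at an unadjusted p under 0.01, 0 of 61 lower and 0 of 20 higher genes with a window hold an octamer. AGGTCA is held by 7 and 4 of them.

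The IGF system was otherwise close to the background. Of its 13 tested genes, 1 was called, and no other had an unadjusted p under 0.05. *Igf1*, an IGF ligand, had 2.30 FPKM in WT and 2.54 FPKM in KI mice (difference 0.13 ± 0.13). *Irs2*, an adaptor of the insulin and IGF receptors, had 10.7 FPKM in WT and 9.57 FPKM in KI mice (difference -0.18 ± 0.15). The median over the 13 genes was -0.11, against -0.0020 over all genes tested.

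PC genes had lower levels as a group. All 30 tested PC genes had a lower mean in KI than in WT mice, with differences from -0.54 to -0.04 and a median of -0.24. An unadjusted p under 0.05 was found for 16 of the 30, all lower, where 2.35% of all genes were lower at that limit. In 18 of the 30 every KI library lay below every WT library, against 5.24% of all genes. None passed after adjustment over all genes. This list, like the other gene lists here, was chosen with earlier results of these data known, so its counts are no independent evidence. The summed level of the 30 genes was 6420, 7285 and 6859 FPKM in the WT libraries and 5660, 5917 and 5673 FPKM in the KI libraries, without overlap. In whole tissue, fewer cells of a type and less RNA per cell cannot be told apart.

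Signaling genes headed the PC list. *Plcb3*, which encodes phospholipase C beta 3, had 15.7, 15.04 and 14.4 FPKM in WT and 10.2, 10.6 and 10.2 FPKM in KI mice. The KI libraries were nearly equal and did not overlap with WT, and the difference was -0.54 ± 0.07 (adjusted p = 0.207). *Fam107b* had 82.8, 83.9 and 81.4 FPKM in WT against 55.0, 63.9 and 60.6 FPKM in KI mice, a difference of -0.47 ± 0.07. *Rgs8*, a regulator that speeds the shut-off of G protein signaling, had 256.1, 306.8 and 275.9 FPKM in WT and 204.8, 221.8 and 200.3 FPKM in KI mice. These levels also did not overlap, at 0.747 times WT. *Gng13*, a G protein gamma subunit, was at 502 ± 64.5 FPKM in WT and 355 ± 58.3 FPKM in KI mice. *Atp2a3*, a pump that fills calcium stores, was at 72.6 FPKM in WT and 59.1 FPKM in KI mice. In all, 6 PC genes, these among them, had an unadjusted p under 0.01.

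Other components of the same cascade lay closer to WT. *Itpr1*, the inositol trisphosphate receptor, had 411 and 375 FPKM with overlapping libraries (difference -0.14 ± 0.13). *Plcb4*, the other phospholipase C beta of many PCs, had 91.3 and 84.9 FPKM. The classical markers *Pcp2* and *Calb1* were at 82.1% and 88.9% of WT. *Pcp2* had 684 to 851 FPKM in WT and 540 to 682 FPKM in KI mice, without overlap, while the ranges of *Calb1* overlapped (410 to 499 and 380 to 456 FPKM). *Rora*, whose product RORa binds ATXN1, was the least different PC gene at 97.9% of WT. The signs of the PC genes depended little on the setting. All 30 were lower under each alternative that kept all 30 genes, apart from 28 without WT replicate 3 and 27 without KI replicate 1. The number with an unadjusted p under 0.05 moved more when 1 library was left out, from 7 without WT replicate 2 to 19 without WT replicate 1, and was 18 with the GC trend removed.

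**Figure D2:**
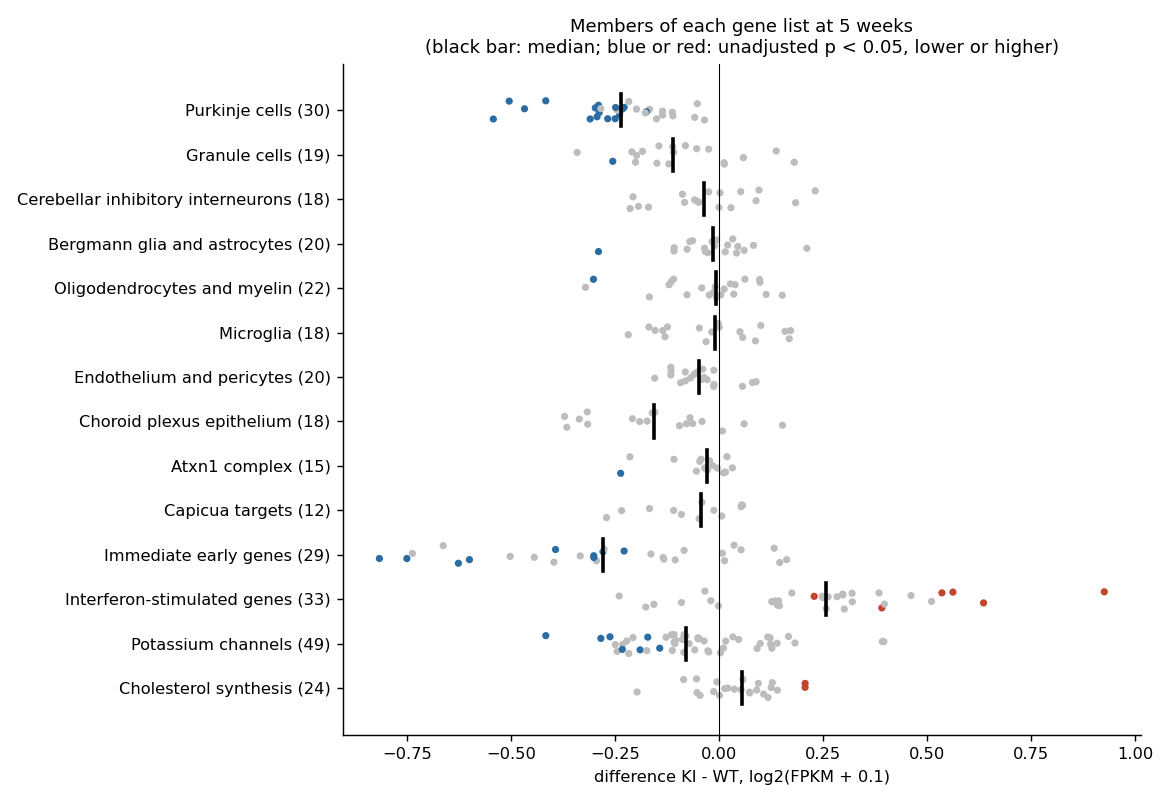
Difference between KI and WT cerebellum at 5 weeks on the log2(FPKM + 0.1) scale for the members of 14 gene lists, with the number tested in parentheses. Points are genes, spread vertically for sight, black bars are medians, and blue or red points have an unadjusted p under 0.05. All 30 PC genes lie below 0, and the interferon-stimulated genes lie mostly above it.

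Promoter windows of PC genes are shown because ATXN1 binds RORa, and because *Pcp2* also drives the transgene of the Tg model. Of 20 PC genes with a window, 7 (35%) hold AGGTCA or its complement, against 14.6% of all tested genes with a window. An octamer is held by 1 (5%), *Pcp2*, against 1.86%. Only windows with a match are shown. Several genes have more than 1 window, which raises the chance of a match. Capitals mark the matches. The windows are *Plcb3* (chr19:6969765-6970064, minus strand), *Rgs8* (chr1:153665423-153665722, plus strand, the third of 3 windows) and *Pcp2* (chr8:3624987-3625286 and chr8:3625233-3625532, minus strand, 2 of 4 windows).
Plcb3: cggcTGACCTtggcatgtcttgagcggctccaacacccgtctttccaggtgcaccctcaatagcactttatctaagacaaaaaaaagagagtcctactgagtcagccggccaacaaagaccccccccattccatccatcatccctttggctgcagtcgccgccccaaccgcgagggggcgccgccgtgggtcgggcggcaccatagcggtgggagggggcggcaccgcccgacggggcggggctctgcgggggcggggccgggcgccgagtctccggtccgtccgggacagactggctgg
Rgs8: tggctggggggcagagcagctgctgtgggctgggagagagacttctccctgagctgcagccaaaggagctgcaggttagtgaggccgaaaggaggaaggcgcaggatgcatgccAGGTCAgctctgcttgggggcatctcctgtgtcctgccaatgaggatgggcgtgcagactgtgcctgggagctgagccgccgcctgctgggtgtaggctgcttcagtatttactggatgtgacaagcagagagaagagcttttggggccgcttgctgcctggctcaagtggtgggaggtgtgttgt
Pcp2, first window: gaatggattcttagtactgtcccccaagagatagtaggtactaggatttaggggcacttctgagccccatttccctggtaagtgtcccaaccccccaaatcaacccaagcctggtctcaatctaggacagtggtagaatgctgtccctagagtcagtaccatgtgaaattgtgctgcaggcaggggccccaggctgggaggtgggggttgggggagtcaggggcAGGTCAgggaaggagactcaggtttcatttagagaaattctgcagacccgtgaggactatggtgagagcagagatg
Pcp2, second window: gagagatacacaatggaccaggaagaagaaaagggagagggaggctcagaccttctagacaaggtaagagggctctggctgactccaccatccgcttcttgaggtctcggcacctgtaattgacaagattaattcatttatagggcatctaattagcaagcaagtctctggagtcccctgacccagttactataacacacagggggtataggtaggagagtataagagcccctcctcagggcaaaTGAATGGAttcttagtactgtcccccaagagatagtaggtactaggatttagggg
The AGGTCA match starts 246 bases before the transcript start in *Plcb3*, 136 before it in *Rgs8* and 26 before it in the first window of *Pcp2*. The octamer starts 5 bases before the start of the second window of *Pcp2*. A match did not always go with a large difference, nor its absence with a small one. *Gng13*, *Fam107b* and *Atp2a3*, with differences of -0.51, -0.47 and -0.29, hold no match in their windows. *Dner*, a transmembrane ligand of Notch, holds AGGTCA at 2 places and had a difference of -0.18.

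Of the tested glutamate and GABA receptor genes, 2 of 24 and 2 of 15 were lower at an unadjusted p under 0.05, against 2.35% of all genes. *Grm4*, the presynaptic receptor mGluR4 of granule cells, had 134.6, 134.1 and 143.5 FPKM in WT and 89.2, 99.2 and 79.1 FPKM in KI mice. The genotypes did not overlap, and the difference was -0.63 ± 0.09 (adjusted p = 0.297). The 2 lower glutamate receptor genes at that limit were *Grm4* and *Grik4*, and the median of the 24 was -0.05. Both subunits of the GABA-B receptor had lower levels. *Gabbr2* was at 68.6 ± 1.58 FPKM in WT and 55.1 ± 1.79 FPKM in KI mice. *Gabbr1* was at 158 ± 2.55 FPKM in WT and 132 ± 4.16 FPKM in KI mice, again with no overlap. The 13 other tested GABA receptor genes, which encode subunits of the GABA-A type, had unadjusted p-values of 0.05 or more, and of all 15 the median was -0.04, with 7 higher means.

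Of 49 tested potassium channel genes, 7 were lower at an unadjusted p under 0.05 and 0 were higher, and 12 had all KI libraries below all WT libraries. Over all genes, 2.35% were lower and 1.3% higher at that limit, and 5.24% had all KI libraries below all WT libraries. The median of the 49 genes was -0.08. *Kcnc1* (Kv3.1, a channel of fast-spiking neurons) had 120.5, 123.2 and 124.7 FPKM in WT and 102.9, 109.6 and 90.7 FPKM in KI mice, without overlap. Of 21 tested calcium channel genes, 2 had an unadjusted p under 0.05, both lower. *Cacna2d2*, an auxiliary subunit, was at 38.7 and 32.8 FPKM, and *Cacna1g*, the T-type channel Cav3.1, at 46.2 and 39.3 FPKM. Of 38 tested ataxia genes, 4 were lower and 1, *Atxn10*, was higher at that limit.

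Beyond these lists, the largest differences toward lower levels were in genes of low to middle abundance. *Ccdc63*, a coiled-coil protein known from sperm flagella, had 5.72, 5.98 and 6.22 FPKM in WT and 2.99, 3.55 and 3.08 FPKM in KI mice. The difference was -0.88 ± 0.10 (adjusted p = 0.195). *Gchfr*, the feedback regulator of the enzyme that starts tetrahydrobiopterin synthesis, was at 3.01 FPKM in WT and 1.57 FPKM in KI mice. *Gcnt1*, an enzyme that branches O-glycans, was at 5.72 and 3.06 FPKM. *Hspb1*, a small heat shock protein, had 16.01, 11.1 and 9.69 FPKM in WT and 7.17, 8.64 and 5.78 FPKM in KI mice, so the spread within WT was wide. *Mdfi*, an inhibitor of myogenic transcription factors, had 9.62, 11.3 and 9.99 FPKM in WT and 7.02, 6.85 and 4.76 FPKM in KI mice. *Atoh7*, a bHLH transcription factor, was at 9.70 ± 0.26 and 5.98 ± 1.25 FPKM, and *Plk5*, a polo-like kinase, at 17.97 ± 2.12 and 11.4 ± 2.27 FPKM. The entry of *Aqp5* and *Aqp6* (aquaporins), *Gm16062*, *Mgmt* (a DNA repair enzyme) and *Mamstr* completed this group, at 0.582 to 0.622 times WT. In none of these genes did the genotypes overlap, which the choice of the group required.

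Among the higher genes, *Synpr*, a synaptic vesicle protein, had 34.5, 37.6 and 36.3 FPKM in WT and 49.1, 54.5 and 53.3 FPKM in KI mice. The difference was 0.53 ± 0.07 (adjusted p = 0.219). *Marcks*, a substrate of protein kinase C at the membrane, had 68.9, 63.4 and 63.8 FPKM in WT and 87.3, 89.7 and 89.8 FPKM in KI mice (difference 0.45 ± 0.06). *Necab1*, a neuronal calcium-binding protein, had 8.86, 7.73 and 7.998 FPKM in WT and 12.2, 12.4 and 14.0 FPKM in KI mice. When the spread was estimated together with the 12 week libraries, 5 genes were called, among them *Synpr*, *Marcks* and *Plcb3* (adjusted p of 0.0048, 0.028 and 0.011) beside *Igfbp5*. *Synpr* and *Necab1* also belong to the list of neurons of neighboring regions, of which 9 of 30 were tested. The summed level of that list, which includes both genes, was 62.7 to 103 FPKM in WT and 87.8 to 109 FPKM in KI libraries. Of the 9 tested members, only these 2 had no overlap of the genotypes. *Slc17a6*, another member, had 24.4, 9.61 and 6.55 FPKM in WT and 20.8, 7.70 and 16.3 FPKM in KI mice. The part of neighboring tissue in the differences of *Synpr* and *Necab1* was not tested. *Chat*, which defines cholinergic neurons, had a mean of 0.0056 FPKM in WT and 0.0172 FPKM in KI mice. The rest of the 12 largest upward differences included *Irgm1* (3.19 and 4.42 FPKM, an interferon-inducible GTPase), *Ephx4* (12.0 and 15.7 FPKM, an epoxide hydrolase), *Slc44a5*, *Cox7b2*, *Ttc39a*, *Adamts6* and *Hs3st5*.

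**Figure D3:**
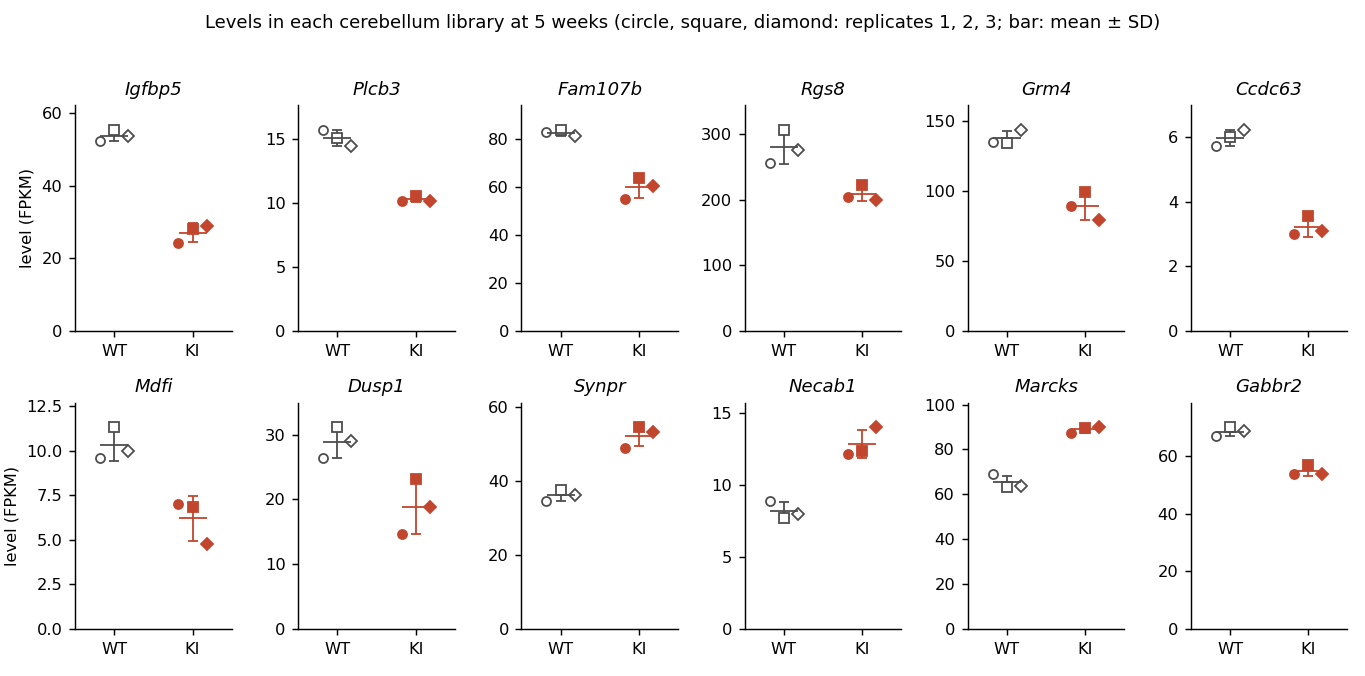
Levels in FPKM (vertical axes, from 0) of 12 genes in the 3 WT (open, gray) and 3 KI (filled, red) cerebellum libraries at 5 weeks. Horizontal marks with bars are means ± SD, and the genotypes are fully apart in all 12 genes, with *Dusp1* the most variable of them in KI mice relative to its mean.

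Immediate early genes, which neurons and glia induce within minutes of a stimulus, tended to lower levels. Of 29 tested, 22 had a lower mean in KI mice, 9 were lower and 0 higher at an unadjusted p under 0.05, and the median was -0.28. Over all 13508 genes, 6849 had a lower mean, and 2.35% were lower and 1.3% higher at that limit. *Dusp1*, a phosphatase of MAP kinases, had 26.4, 31.1 and 28.9 FPKM in WT and 14.6, 23.2 and 18.9 FPKM in KI mice (difference -0.63 ± 0.16). *Dusp5*, a phosphatase of ERK, had 49.2, 46.9 and 43.0 FPKM in WT and 28.7, 38.5 and 25.7 FPKM in KI mice. *Npas4*, a neuronal activity-dependent transcription factor, had 2.02, 2.02 and 2.06 FPKM in WT and 0.61, 1.28 and 1.71 FPKM in KI mice. The count of 9 fell to 4 without WT replicate 2, to 5 without WT replicate 1 or KI replicate 3, and to 5 with the GC trend removed. Glucocorticoid-responsive genes, which also react to handling, had 1 of 16 at an unadjusted p under 0.05 and a median of -0.07. Clock genes had a median of -0.11, with 2 of 22 lower at that limit, *Cry2* and *Hlf*.

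The study named 9 genes of this comparison, chosen on these same libraries, so their counts are no independent evidence. *Igfbp5*, *Synpr*, *Necab1*, *Mdfi*, *Dusp1* and *Ifi203* had an unadjusted p under 0.01 here. *Eomes*, a transcription factor of unipolar brush cells, had 13.9, 10.7 and 5.96 FPKM in WT and 3.41, 6.89 and 4.47 FPKM in KI mice. The groups overlapped, and the difference of -1.01 ± 0.34 was the largest of the 9. Of 10 tested genes of unipolar brush cells, 3 were lower at an unadjusted p under 0.05, *Eomes* and *Mdfi* among them, and the median was -0.03. *Per1*, a clock gene, had 16.6, 15.6 and 9.30 FPKM in WT and 7.47, 12.6 and 8.01 FPKM in KI mice. *Wnt4*, a secreted Wnt ligand, had 1.36, 4.99 and 5.43 FPKM in WT and 1.29, 1.59 and 3.58 FPKM in KI mice, so WT replicate 1 lay within the KI range. For *Per1* and *Wnt4* the unadjusted p-values by limma were 0.0733 and 0.219. Of 34 tested genes of the Wnt system, 2 were lower and 0 higher at an unadjusted p under 0.05, and the median was -0.03. None of 9 tested genes of the VEGF system passed that limit.

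Interferon-stimulated genes, a set induced by antiviral cytokines, leaned toward higher levels. Of 33 tested entries, 26 had a higher mean in KI mice, and 6 were higher and 0 lower at an unadjusted p under 0.05, where 1.3% of all genes were higher at that limit. The median was 0.26. The list also had positive medians elsewhere, 0.32 in KI cerebellum at 12 weeks and 0.36 in KI inferior olive at 5 weeks. In Tg cerebellum at 5 weeks the median was 0.08. At 12 weeks 7 of 32 were called as higher, against 2.0% of all genes, and in the inferior olive 0 of 33 were called. The entry that joins *Ifi203* and *Mndal* had 1.69, 2.51 and 2.21 FPKM in WT and 3.78, 3.26 and 5.57 FPKM in KI mice (difference 0.93 ± 0.22, adjusted p = 0.987). *Ifit1*, which binds viral RNA, had 1.31, 1.41 and 1.27 FPKM in WT and 2.24, 1.55 and 2.21 FPKM in KI mice. *Tap1*, a peptide transporter, was at 0.649 and 1.03 FPKM. *Iigp1* was at 0.772 and 1.28 FPKM. Most of these levels are close to the filter. The summed level of the list was 208 to 213 FPKM in WT and 275, 214 and 225 FPKM in KI libraries, so KI replicate 1 stood highest. The count of 6 became 3 without KI replicate 1, 3 without WT replicate 2 or 3, and 12 without KI replicate 2.

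Lists of other cell types are given by their medians and counts. Granule cell genes had a median of -0.11 with 1 of 19 at an unadjusted p under 0.05, *Rbfox3*, which encodes NeuN. Inhibitory interneurons (18 genes), Bergmann glia and astrocytes (20), oligodendrocytes (22), microglia (18), and endothelium and pericytes (20) had medians from -0.05 to -0.0083, with 0, 1, 1, 0 and 0 genes at that limit. In the last of these, 17 of 20 genes had a lower mean in KI mice. Choroid plexus genes varied between libraries regardless of genotype. Their summed level was 1418, 577 and 1798 FPKM in WT and 2144, 1292 and 425 FPKM in KI libraries, with a median of -0.16, 15 of 18 means lower in KI mice and 0 of 18 at an unadjusted p under 0.05. Hemoglobin and other red cell genes summed to 439 to 1084 FPKM in WT and 440 to 543 FPKM in KI libraries, and leptomeningeal genes to 225 to 245 and 169 to 280 FPKM. The median was -0.32 over 4 tested red cell genes, all 4 with a lower mean in KI mice, which is further from 0 than that of PC genes. It was -0.11 over 18 leptomeningeal genes, 16 of them with a lower mean, and 0 genes of either list had an unadjusted p under 0.05. The part of these lists in the results above was not tested. Cholesterol synthesis genes had 17 of 24 higher means and a median of 0.05, with *Sqle* and *Hmgcs1*, enzymes of the pathway, higher at an unadjusted p under 0.05. Chaperone genes had 2 of 22 lower at that limit, *Hspb1* and the joint entry of *Hspa1a* and *Hspa1b*.

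The same genes were then read in KI and WT cerebellum at 12 weeks, which come from other mice and other libraries. Of the 77 lower genes at an unadjusted p under 0.01, 72 could be compared, and 70 were also lower at 12 weeks. Of these, 42 were called as lower at 12 weeks, against 3.57% of all genes, and in 54 the groups did not overlap, against 15% of all genes. Of the 25 higher genes, 21 could be compared. At 12 weeks 20 of them were higher, 9 were called as higher (2.0% of all genes), and 15 had no overlap (17.1% of all genes). The median difference was -0.42 at 5 weeks and -0.46 at 12 weeks for the lower genes, and 0.33 and 0.31 for the higher ones. These genes were chosen by their 5 week values, which enlarges the 5 week medians. The medians therefore do not show how the size changed with age. *Igfbp5* was at 42.7 ± 2.79 FPKM in WT and 17.3 ± 1.27 FPKM in KI mice at 12 weeks (difference -1.30 ± 0.07, adjusted p = 0.00028). *Synpr* had differences of 0.53 and 1.02 at 5 and 12 weeks, *Plcb3* -0.54 and -0.89, and *Mdfi* -0.74 and -1.51. *Dusp1* had -0.63 at 5 weeks and 0.07 at 12 weeks, and *Atoh7* had -0.71 and -0.28. Of 8 genes of neurons of neighboring regions tested at 12 weeks, 3 were called as lower and 2 as higher. *Tcf7l2* had -3.15 and *Slc17a6* -1.88 (limma, adjusted p = 0.00028 and 0.013), and the higher ones were *Synpr* and *Necab1*. The part of neighboring tissue in the 12 week differences was not tested.

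**Figure D4:**
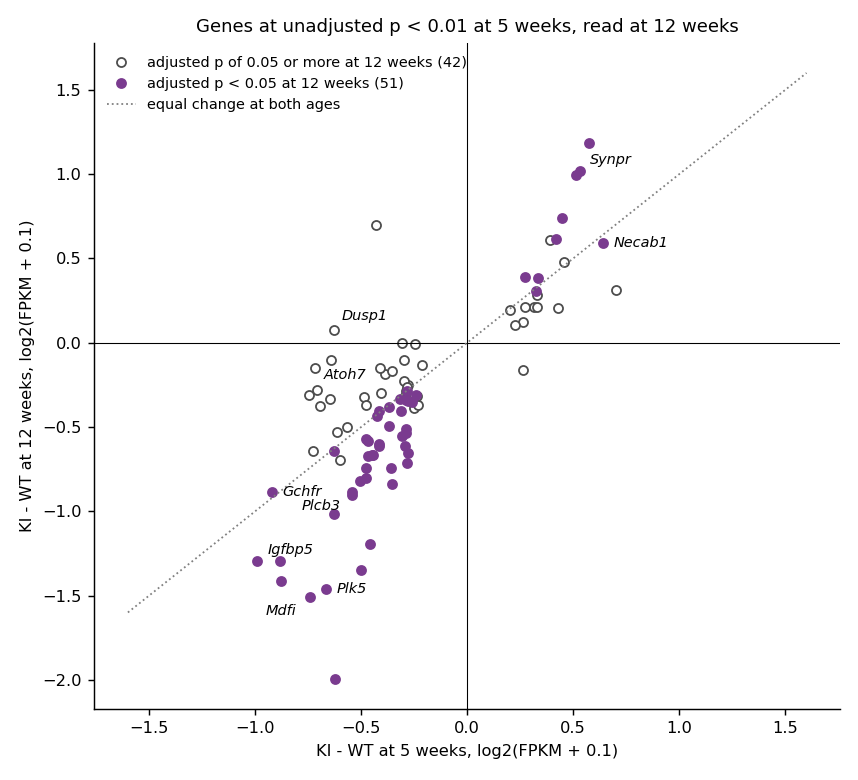
Difference between KI and WT cerebellum on the log2(FPKM + 0.1) scale at 5 weeks (horizontal axis) and 12 weeks (vertical axis) for the 93 genes at an unadjusted p under 0.01 at 5 weeks that were tested at both ages. Filled points, 51 in all, had an adjusted p under 0.05 at 12 weeks, the dotted line marks equal differences, and all but 3 genes keep their sign.

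Read the other way, the genes called at 12 weeks were followed back to 5 weeks. Of 460 genes called as lower at 12 weeks and tested at both ages, 350 had a lower mean at 5 weeks, 97 with an unadjusted p under 0.05 (2.35% of all genes), and 0 were higher at that limit. Their median difference was -0.49 at 12 weeks and -0.11 at 5 weeks. Of 255 genes called as higher at 12 weeks, 228 had a higher mean at 5 weeks, 38 with an unadjusted p under 0.05 (1.3% of all genes). Their medians were 0.35 at 12 weeks and 0.10 at 5 weeks. Here the choice was made at 12 weeks and enlarges the 12 week medians. The difference between the ages was tested by an interaction over 12 libraries. No gene of 12486 was called, while 890 (7.13%) had an unadjusted p under 0.05 by limma. The smallest p-values belonged to *Car9*, *Synpr* and *Itih3* (adjusted p = 0.306 each). For PC genes the median was -0.24 at 5 weeks and -0.32 at 12 weeks, when 12 of 30 were called as lower. Granule cell genes had a median of -0.11 at 5 weeks and 0.23 at 12 weeks. Their interaction was positive in 19 of 19, with 3 at an unadjusted p under 0.05 by limma. Over all 12486 genes it was positive in 6807, with 334 at that limit. Immediate early genes had a median of -0.28 at 5 weeks and 0.06 at 12 weeks, when 0 of 29 were called. Their interaction was positive in 25 of 29, with 4 at that limit. Other lists moved the other way. The interaction was negative in 20 of 21 oligodendrocyte genes, 11 at that limit, and in 17 of 18 microglia genes, 2 at that limit. The part of tissue composition in these shifts was not tested.

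At 5 weeks the cerebellum of Tg mice, compared with its own WT controls, showed larger differences in PC genes than that of KI mice. Of the 30 PC genes, 29 were called as lower in Tg mice, against 3.67% of all genes, with a median of -0.97. In the interaction between models, 21 of the 26 PC genes that could be compared were called, all with a smaller decrease in KI mice, where 0.825% of all genes were called. *Rgs8*, for example, had differences of -0.42 in KI and -1.54 in Tg mice (interaction, adjusted p = 0.00032). *Grm4*, *Synpr* and *Igfbp5* had the larger difference in KI mice. *Grm4* had -0.63 in KI and 0.03 in Tg mice (adjusted p = 0.0095), and *Synpr* had 0.53 in KI and -0.01 in Tg mice (adjusted p = 0.0049). *Igfbp5* had -0.99 in KI and -0.46 in Tg mice (adjusted p = 0.040). Of the lower KI genes, 64 of 69 were also lower in Tg mice and 35 were called as such, while of the higher KI genes 15 of 22 were higher and 0 were called (0.423% of all genes). Model and strain cannot be told apart in this comparison.

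**Figure D5:**
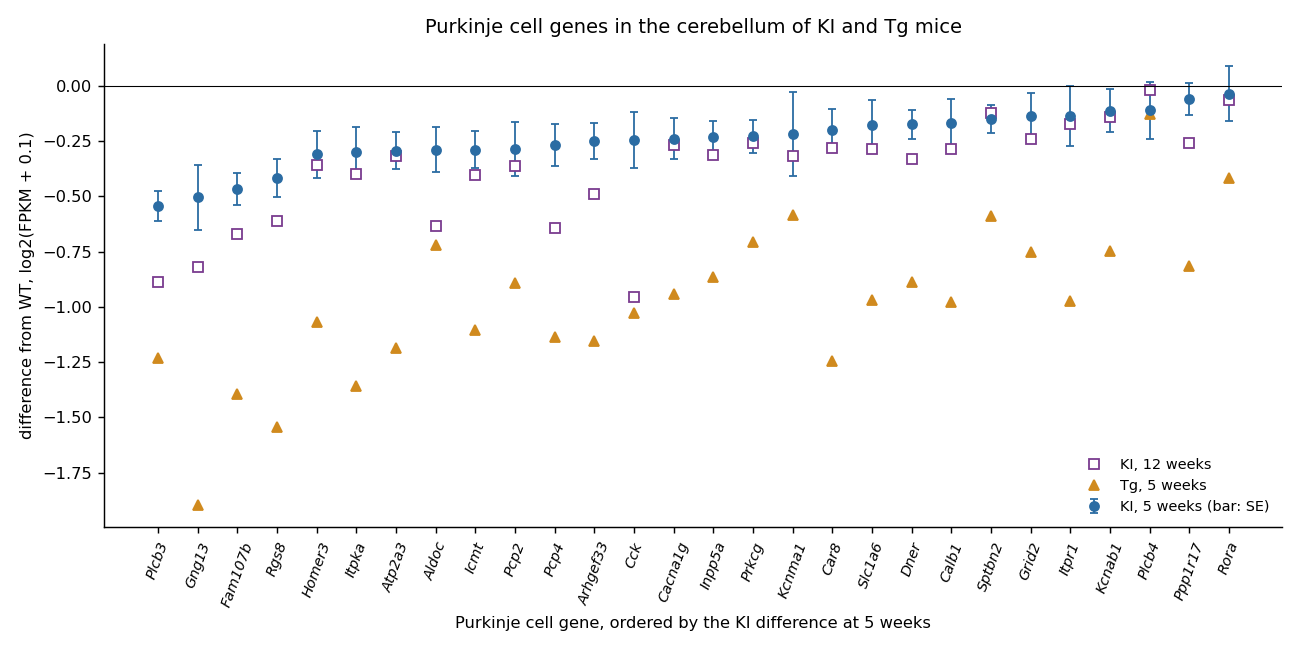
Difference from WT on the log2(FPKM + 0.1) scale (vertical axis) for 28 of the 30 PC genes in the cerebellum of KI mice at 5 weeks (blue circles, bars are SE), KI mice at 12 weeks (purple squares) and Tg mice at 5 weeks (orange triangles). Genes are ordered by the KI difference at 5 weeks, all of which are below 0, and the Tg differences are larger for all genes called in the interaction.

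The inferior olive of KI mice at 5 weeks gave another reading of the same genes. Of 65 lower cerebellar genes tested there, 49 had a lower mean, 0 were called (0.0145% of all genes), and the median was -0.08. Of 20 higher genes, 14 had a higher mean and the median was 0.03. PC genes also had a negative median in the inferior olive, -0.12 against -0.24 in the cerebellum, with 0 of 29 called. Their interaction between tissues was negative in 15 and positive in 11 of 26, with a median of -0.05. Of these, 5 negative and 2 positive ones had an unadjusted p under 0.05 by limma. *Igfbp5* had a difference of -0.27 in the inferior olive, and *Mdfi* had -1.21 (adjusted p = 0.137). The interaction between tissues called 0 of 12245 genes, and 518 (4.23%) had an unadjusted p under 0.05 by limma, among them *Igfbp5* (-0.72 ± 0.14) and *Plcb3* (-0.44 ± 0.09), each with an adjusted p of 0.536.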

How the data were processed

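Poly-A selected RNA of whole cerebellum was sequenced (paired-end), aligned by the authors to mm10 with TopHat2 2.1.0, and quantified with Cufflinks 2.2.1. The deposited values are FPKM, which the authors normalized with Cuffnorm over the 6 libraries of a table, so levels were compared only within a table. The tables also hold the authors' group means and Cuffdiff fold changes, p-values and q-values, which were not used. Of the 26892 entries of the 5 week KI cerebellum table, 12.4% carry no symbol and were left out, and 624 join neighboring genes. Positions are deposited loci, counted from 1.

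Genes whose mean reached 0.5 FPKM in each genotype were analysed on log2(FPKM + 0.1) with limma 3.58.1 in R 4.3.3 (empirical Bayes with a mean-variance trend, Benjamini-Hochberg adjustment), the filter following the study. The pseudocount shrinks differences of low genes. Read counts were not used here, so depth is unknown and count models could not be applied. The libraries are from separate male mice, 3 per genotype. Interactions by age, tissue or model used 12 libraries of 2 tables. The method was tested on simulated data.

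The comparison and the gene lists were chosen with earlier results of these data known. Genes were named if called, if among the 12 largest non-overlapping differences in each direction at an unadjusted p under 0.01 and 1 FPKM, if among the 3 smallest p-values of a list, if named by the study, or if called in an interaction (the 5 of smallest p-value where more than 10). *Atxn1*, *Atxn1l* and *Cic* were always included, and members of a list were added in the text to show its other genes. Promoter windows came from RefSeq (GRCm38.p6). Some genes that the rule names are not reported here. Alternatives are given in the closing section.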

Additional observations from a re-analysis of the deposited data

Results flagged for a closer look

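The difference from WT at 5 weeks was not the same in KI and Tg cerebellum for 102 of 12370 genes, by an interaction over 12 libraries at an adjusted p under 0.05 (limma). The interaction, KI minus Tg, was positive for 96 of these genes and negative for 6. The smallest p-values included those of 4 genes that were lower in Tg mice. *Stk17b* had an interaction of 1.29 on the log2(FPKM + 0.1) scale, with differences of -0.14 in KI and -1.43 in Tg mice. *Gpr63* had an interaction of 1.32, *Doc2b* of 1.01 and *Tuba8* of 0.82. KI and Tg mice also differ in strain, and model and strain cannot be told apart.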

How the results depend on the processing

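The 104 named genes were recomputed under up to 19 alternatives, and 1934 of these values kept their direction and their side of the threshold, while 11 reversed. No gene was called at an adjusted p under 0.05 (count 0) with a filter of 0.5 FPKM in either genotype, no filter, median centring, upper quartile scaling or no mean-variance trend, nor with the GC trend removed or without replicate 1 of both genotypes, the last 2 chosen after seeing the data. With the spread shared with the 12 week libraries 5 genes were called, and with 1 library left out between 0 and 1, which without WT replicate 3 was *Snora64* and not *Igfbp5*. Genes at an unadjusted p under 0.01, 102 in all, became 171 with no filter and 209 with the shared spread, and 43 to 134 with 1 library left out (43 without WT replicate 2, 67 without WT replicate 3), and 136 without replicate 1 of both genotypes. The age and tissue interactions called between 0 and 1 genes with 1 library left out, and the model interaction between 81 and 141. The cause of these shifts was not tested.

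Same-numbered replicates deviated from their genotype means with correlations of 0.499, 0.067 and 0.110, so the numbers were not taken to pair the libraries, and WT replicate 3 correlated best with KI replicate 2 (0.347). A fit with the replicate block called 1 gene, with 259 at an unadjusted p under 0.01, and the model interaction called 147 with the block.

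Reversals came from leaving out libraries. With 1 library left out, the difference of *Atxn1* ranged from -0.10 to 0.15 (0.09 without replicate 1 of both genotypes) and that of *Atxn1l* from -0.035 to 0.049. It ranged from -0.61 to 0.0076 for the entry of *2410124H12Rik* and *Clic6*, from -0.83 to 0.14 for *Kcnj13* and from -0.89 to 0.38 for *Folr1*, each positive without KI replicate 3. It ranged from -0.57 to 0.072 for the entry of *Hbb-b1* and *Hbb-bs* and from -0.56 to 0.094 for *Hbb-bt*, each positive without WT replicate 2, and was -0.64 and -0.67 without replicate 1 of both genotypes. Depth in fragments is unknown, so no counting limit can be given for low genes.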
